A study of Mus musculus with 8 samples.

Results

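Interferon-stimulated genes are switched on when a cell senses type I or type II interferon, and they make most of the proteins of the antiviral state. All 39 mouse genes on the list examined here were present in all 8 libraries, of 14042 genes measured, and they were taken from a list of names with no threshold on their values. They fall into 9 roles: RNA and DNA sensors, transcription factors, the ISG15 system, the Ifit, Oas and Mx families, guanylate-binding and immunity-related GTPases, the PARP9 complex with PARP14, and a set of further effectors. Type I interferons bind a receptor of the chains IFNAR1 and IFNAR2, and the kinases JAK1 and TYK2 then activate a complex that contains STAT2 and IRF9 and binds the interferon-stimulated response element (ISRE) in promoters. Interferon gamma signals through its own receptor, JAK1 and JAK2 to the gamma-activated sequence (GAS) in promoters. T cells carry both receptors, and activated helper T cells can themselves secrete interferon gamma.

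The libraries came from mouse CD4 T cells in 4 groups of 2. Both naive groups were sorted as CD62L high and CD44 low cells, from wild-type mice (naive WT) or from C5aR1-/- mice (naive KO), which lack a receptor for the complement fragment C5a. For both T follicular helper (TFH) groups, (bxd)F1 mice received 10000000 spleen cells without CD8 cells from donors that were WT or deficient in C5aR1. Donor CD4 cells that were CXCR5 positive and PD1 high were sorted 7 days later (TFH WT and TFH KO). Parental cells placed in an F1 host attack it, which is a model of graft-versus-host disease. The TFH and naive groups therefore differ in transfer, host and sort together, and these cannot be told apart. The sources used here give no ages and do not say whether replicate libraries are separate animals, so p-values measure the spread between these libraries, which may be technical.

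The values are the deposited log2 expression values, on which a difference of 1 is a change of 2-fold, and their sequencing depth is unknown. The 9 CD4 T cell markers checked made up 0.450% to 0.581% of the summed linear values in the 8 libraries. Of 9 TFH markers 5 rose in TFH WT and 4 in TFH KO against naive cells of the same genotype, among them Il21, but the Cxcr5 transcript did not, and the Cd44 transcript fell in both genotypes. The summed level of 16 B cell markers spanned 0.0167% to 0.254% in TFH KO, 0.0185% to 0.0899% in TFH WT, 0.0884% to 0.0916% in naive KO and 0.0452% to 0.0998% in naive WT. In both TFH groups replicate 2 was the library high in B cell markers. The 15 myeloid markers spanned 0.0355% to 0.107% in the 4 naive libraries and 0.0113% to 0.0275% in the 4 TFH libraries. No marker was at 0. Naive KO replicate 1 showed the sex-linked pattern of a different sex from the rest: it had Xist at 14.61 and the Y-linked Ddx3y at 5.67, where the other 7 libraries had Xist at 4.44 to 5.56 and Ddx3y at 12.54 to 13.16. C5ar1 was not analysed here, so the genotype was not checked on the gene itself. As the samples are bulk, fewer cells of a type and less RNA per cell cannot be told apart.

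The promoters were read for the elements that interferon signalling uses. RefSeq windows on GRCm38.p6, from 250 bases before to 50 bases after each annotated start, were found for 30 of the 39 genes. The ISRE core, 2 copies of TTTC with any 2 bases between them, or GAAA in the same way on the other strand, was in the windows of 16 of the 30 genes (53.3%), against 3.99% of 27025 genes with a window. The looser form TTCNNTTTC, which every ISRE core also matches, was in 18 of the 30 (60.0%) against 9.76%. The GAS core TTCNNNGAA, which reads the same on both strands, was in 8 of the 30 (26.7%) against 9.55%. The stretches below are for genes that the results turn on, read 5′ to 3′ on the gene's strand, with the ISRE matches in capitals in the first 5 and the GAS match in capitals in the last 2. Isg15 carries 3 overlapping matches at chr4:156200855-156200916 (minus strand), the nearest beginning 66 bases before the start. Ifit1 carries 2 matches at chr19:34640765-34640833 (plus strand), Oas1a 2 at chr5:120907526-120907565 (minus strand), Stat2 1 at chr10:128270256-128270305 (plus strand) and Gbp2 1 at chr3:142620584-142620633 (plus strand). Irf1 has its GAS match at chr11:53769904-53769952 (plus strand) and Isg20 at chr7:78913331-78913379 (plus strand). They are set side by side because genes with the same core went different ways in the comparisons that follow.
Isg15: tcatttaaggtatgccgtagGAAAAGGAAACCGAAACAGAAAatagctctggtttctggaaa
Ifit1: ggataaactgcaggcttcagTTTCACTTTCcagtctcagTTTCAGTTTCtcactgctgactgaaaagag
Oas1a: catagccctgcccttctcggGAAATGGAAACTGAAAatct
Stat2: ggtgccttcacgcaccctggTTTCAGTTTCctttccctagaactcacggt
Gbp2: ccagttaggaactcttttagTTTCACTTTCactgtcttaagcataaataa
Irf1: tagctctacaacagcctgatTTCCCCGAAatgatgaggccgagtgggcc
Isg20: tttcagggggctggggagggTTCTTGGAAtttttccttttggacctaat

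TFH cells were compared with naive cells of the same genotype, which asks how the interferon-stimulated genes stood in donor cells recovered from the F1 host. In WT the list moved upward in part: 14 genes rose, 2 fell and 23 were not called. Mx2 rose most, followed by Irf1, Isg20, Gbp2 and Isg15, while Samd9l and Ifit2 fell. In KO 7 genes rose, 2 fell and 30 were not called, again with Mx2 and Irf1 at the top. A gene is called here when limma's moderated test, fitted on all genes with 4 group means, gives a Benjamini-Hochberg adjusted p below 0.05 over all 14042 genes. In WT 16 of 39 (41%) were called, against 26.3% of all genes; 12.6% of all genes were called higher and 13.7% lower. In KO 9 of 39 (23.1%) were called, against 19.5% of all genes, 9.12% higher and 10.4% lower. The median difference of the 39 genes was 0.35 in WT and 0.19 in KO, where the median of all genes was 0.01 and -0.01.

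Of the called genes 8 moved the same way in both genotypes, 50% of those called in WT and 88.9% of those called in KO, where over all genes it was 2148 genes, 58.1% and 78.3%. They are Zbp1, Stat2, Irf1, Oas2, Mx2, Isg20 and Xaf1, which rose, and Samd9l, which fell. In the 14 genes Ifih1, Zbp1, Stat2, Irf1, Isg15, Oas2, Mx2, Gbp2, Gbp7, Parp9, Isg20, Cmpk2, Xaf1 and Rtp4 all 4 TFH libraries lay above all 4 naive libraries, an order found in 18.2% of all genes. In Ifit2, Oas1a and Samd9l all 4 TFH libraries lay below, an order found in 20.3% of all genes. In the other 22 genes the TFH and naive libraries overlapped. With the libraries centred on 18 housekeeping genes, 10 of the 39 genes rose and 3 fell in WT and 4 rose and none fell in KO, and over all genes the calls went from 1772 higher and 1922 lower to 876 and 1520 in WT, and from 1280 and 1464 to 771 and 609 in KO. That scaling changed the sign of 1 of the 39 genes, the uncalled Ddx58, in KO and of none in WT. It ended the calls of Stat2, Gbp7, Parp9, Xaf1 and Rtp4 in WT and of Stat2, Oas1a, Isg20, Samd9l and Xaf1 in KO, while Oas1a (lower) and Gbp3 (higher) were then called in WT. Without the trend option Irgm1 lost its call in WT, and Irf1, Oas2 and Mx2 were the 3 genes still called in KO. With only the KO libraries in the fit Stat2, Isg20 and Xaf1 lost their calls.

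**Figure D1:**
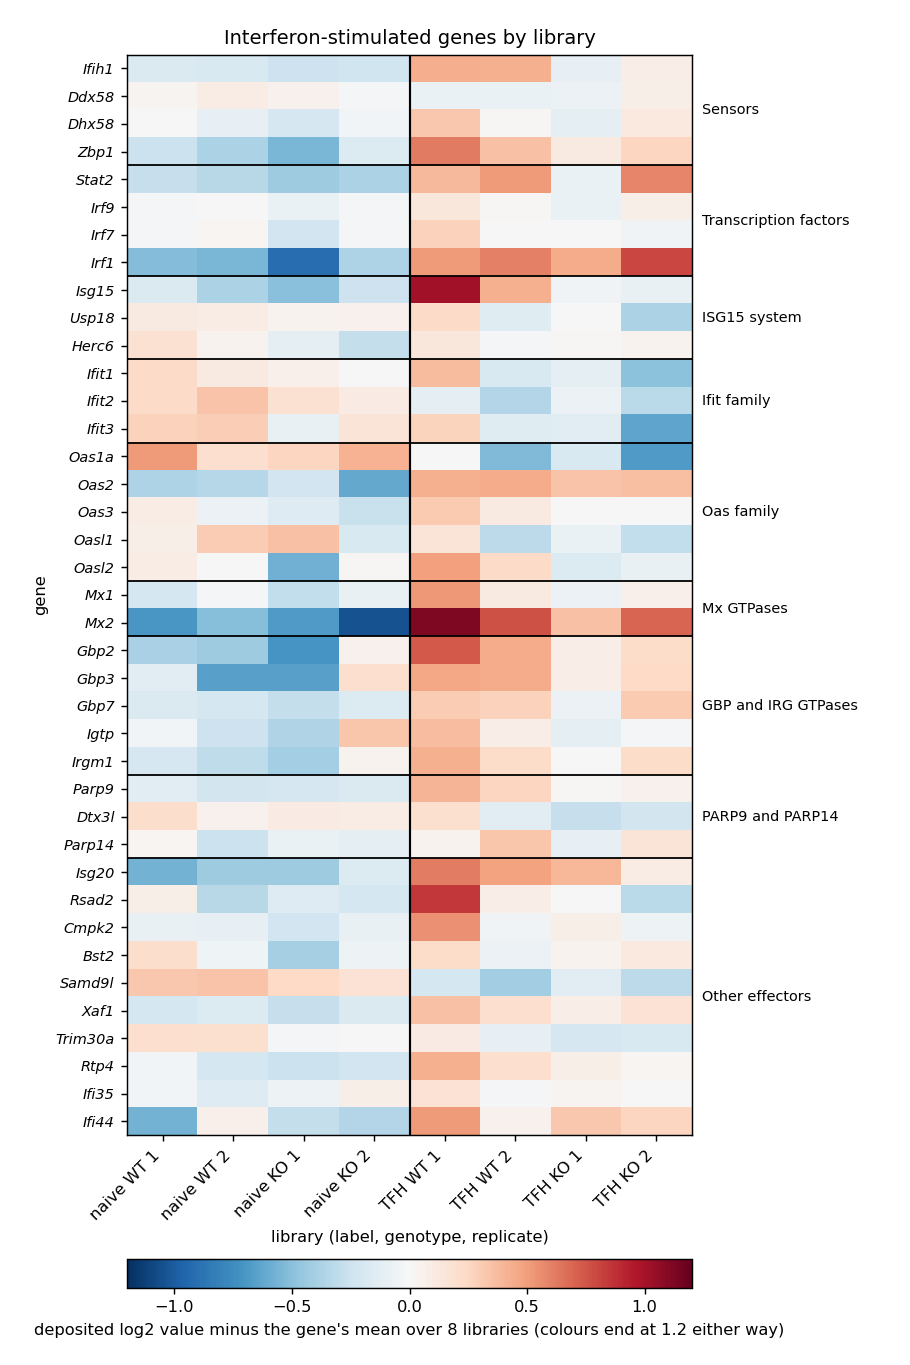
Each row is 1 of the 39 genes, grouped by role, and each column 1 library; the colour is the deposited log2 value minus the gene's mean over the 8 libraries, ending at 1.2 in either direction. Mx2, Irf1, Oas2 and Zbp1 are low in the 4 naive columns and high in the 4 TFH columns, while Samd9l, Ifit2 and Oas1a are the reverse.

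**Figure D2:**
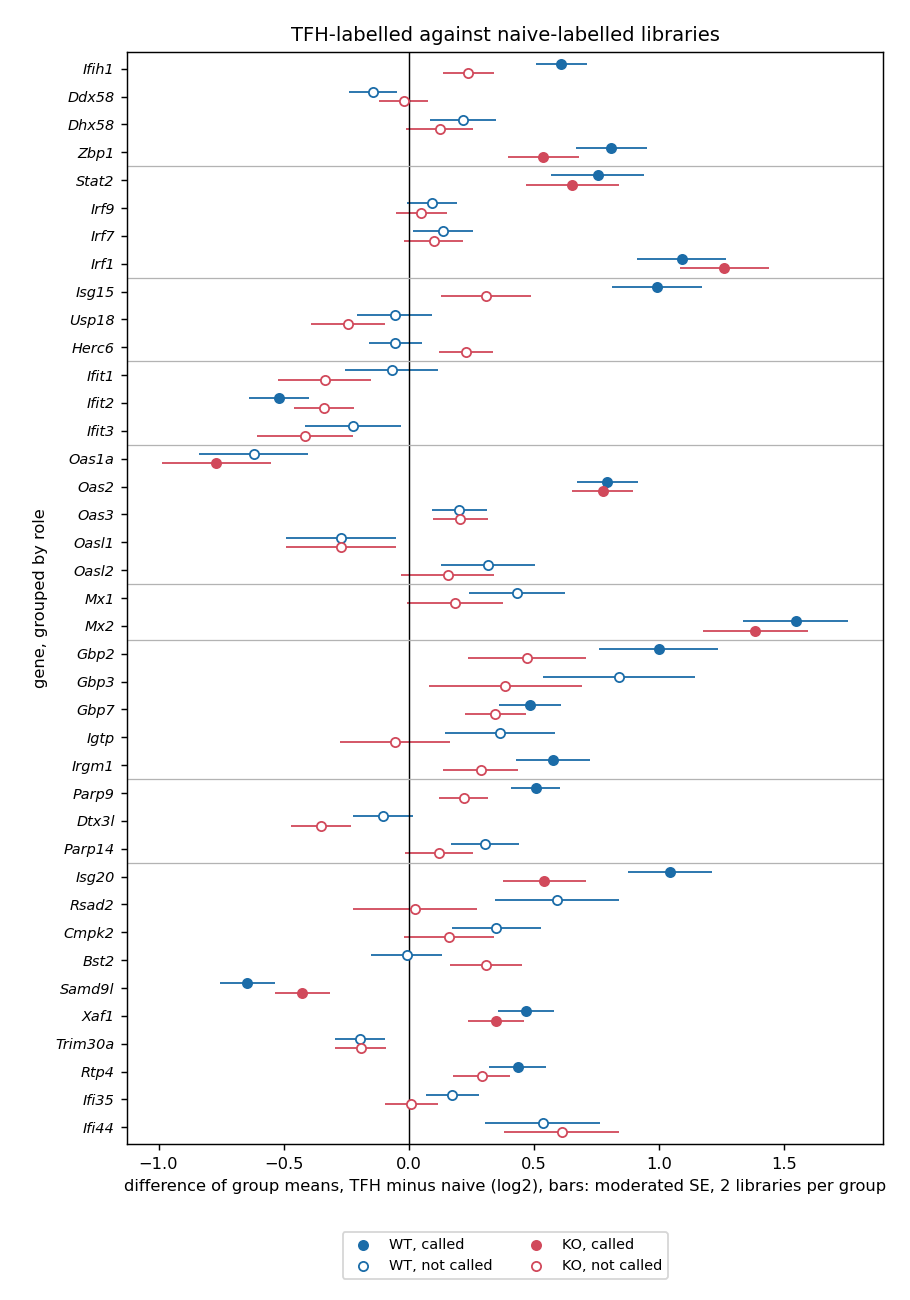
The difference of group means (TFH minus naive, log2) is shown for each gene in WT and in KO, with bars of 1 moderated standard error from 2 libraries a group and filled points for called genes. Filled points stand at 14 positive and 2 negative differences in WT and at 7 positive and 2 negative in KO.

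Among the sensors, Zbp1, which recognises Z-form nucleic acids and can start cell death, rose in both genotypes. Its level was 12.04 and 11.92 in naive WT, 11.75 and 12.14 in naive KO, 12.93 and 12.65 in TFH WT and 12.40 and 12.56 in TFH KO. TFH exceeded naive by 0.81 ± 0.14 in WT (moderated SE, limma adjusted p = 0.00194) and by 0.54 ± 0.14 in KO (adjusted p = 0.0219). The KO call was lost without naive KO replicate 1 (adjusted p = 0.141) and without TFH KO replicate 2 (adjusted p = 0.140). Ifih1, which encodes the double-stranded RNA sensor MDA5, was at 10.90 and 10.88 in naive WT and 10.82 and 10.83 in naive KO, and at 11.51 and 11.50 in TFH WT against 10.97 and 11.15 in TFH KO. The TFH WT libraries stood apart from the other 6. Ifih1 rose by 0.61 ± 0.10 in WT (adjusted p = 0.00137), and its difference of 0.24 ± 0.10 in KO missed the threshold (adjusted p = 0.132). Ddx58 (RIG-I, a sensor of viral RNA ends) and Dhx58 (LGP2, a regulator of both RNA sensors) were not called, with differences of -0.14 and 0.22 in WT and -0.02 and 0.12 in KO.

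Of the transcription factors Irf1, which acts downstream of interferon gamma and has the GAS match printed above, rose most. Its level was 14.11 and 14.09 in naive WT, 13.72 and 14.27 in naive KO, 15.14 and 15.24 in TFH WT and 15.08 and 15.43 in TFH KO, so the 2 kinds of cells did not overlap in either genotype. The difference was 1.09 ± 0.18 in WT (2.13-fold, adjusted p = 0.00249) and 1.26 ± 0.18 in KO (2.40-fold, adjusted p = 0.00161). It was called in both genotypes under all 13 alternatives tried. Stat2, a part of the type I complex, was at 12.33 and 12.27 in naive WT and 12.18 and 12.23 in naive KO. It was at 12.99 and 13.11 in TFH WT and 12.52 and 13.19 in TFH KO. It rose by 0.76 ± 0.19 in WT (adjusted p = 0.0181) and by 0.65 ± 0.19 in KO (adjusted p = 0.0413), and TFH KO replicate 1 was the lowest of the 4 TFH libraries. The Stat2 call in WT was lost without any 1 of the 4 WT libraries, with adjusted p from 0.0696 to 0.113. In KO it was lost without naive KO replicate 1 (0.176), naive KO replicate 2 (0.158) or TFH KO replicate 2 (0.142), and without the last its difference was 0.32.

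The other 2 factors of the type I response were not called. Irf9, which partners STAT2 on DNA, was at 12.88 and 12.90 in naive WT, 12.83 and 12.88 in naive KO, 13.04 and 12.93 in TFH WT and 12.83 and 12.98 in TFH KO. Irf7, the amplifier of interferon alpha production, was at 12.64 and 12.70 in naive WT, 12.44 and 12.66 in naive KO, 12.95 and 12.66 in TFH WT and 12.67 and 12.63 in TFH KO. Irf9 differed by 0.09 ± 0.10 in WT (95% interval -0.13 to 0.31) and Irf7 by 0.14 ± 0.12 (-0.12 to 0.40).

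In the ISG15 system the modifier rose in WT, and the listed enzymes Usp18 and Herc6 were not called. Ube2l6, an ISG15 enzyme outside the list, rose in both genotypes and is given under the other observations. Isg15, a ubiquitin-like protein that is joined to other proteins, was at 10.38 and 10.18 in naive WT, 10.06 and 10.31 in naive KO, 11.57 and 10.98 in TFH WT and 10.51 and 10.47 in TFH KO. Both TFH WT libraries lay above every other library, and the TFH KO libraries lay just above the naive ones. Isg15 rose by 0.99 ± 0.18 in WT (1.99-fold, adjusted p = 0.00315) and differed by 0.31 ± 0.18 in KO (adjusted p = 0.276). Usp18, which removes ISG15 and restrains the type I receptor, was at 10.93 and 10.91 in naive WT, 10.87 and 10.88 in naive KO, 11.05 and 10.68 in TFH WT and 10.82 and 10.44 in TFH KO. Herc6, the ligase that attaches ISG15 in the mouse, was at 11.93 and 11.79 in naive WT, 11.63 and 11.46 in naive KO, 11.88 and 11.74 in TFH WT and 11.76 and 11.79 in TFH KO. Usp18 and Herc6 differed by -0.06 ± 0.15 and -0.05 ± 0.11 in WT and by -0.24 ± 0.15 and 0.23 ± 0.11 in KO, none of them called.

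The Ifit genes, whose proteins bind foreign RNA and block its translation, had negative differences in both genotypes, 1 of the 3 called in WT and none in KO. Ifit2 was at 11.91 and 12.02 in naive WT, 11.86 and 11.78 in naive KO, 11.56 and 11.33 in TFH WT and 11.61 and 11.35 in TFH KO. It fell by 0.52 ± 0.12 on the log2 scale in WT (adjusted p = 0.00814), a call lost without naive WT replicate 2 (0.0654) or TFH WT replicate 2 (0.0877), and differed by -0.34 ± 0.12 in KO (adjusted p = 0.0701). All 4 TFH libraries lay below the naive ones for this gene. Ifit1 was at 10.79 and 10.66 in naive WT, 10.62 and 10.56 in naive KO, 10.94 and 10.37 in TFH WT and 10.44 and 10.06 in TFH KO. Ifit3 was at 9.90 and 9.92 in naive WT, 9.54 and 9.78 in naive KO, 9.90 and 9.48 in TFH WT and 9.49 and 8.99 in TFH KO. In both, TFH WT replicate 1 was near or above the naive WT libraries, TFH WT replicate 2 was below them, and TFH KO replicate 2 was lowest of all 8. Ifit1 differed by -0.07 ± 0.19 and Ifit3 by -0.22 ± 0.19 in WT, and by -0.34 ± 0.19 and -0.41 ± 0.19 in KO. Ifit2 and Ifit3 were called lower in KO without TFH KO replicate 1 (adjusted p = 0.0439 and 0.0475) or when B cell markers entered the fit as a covariate (0.0169 and 0.0218). Ifit3 shares 50.8% of its 51-base sequences with Ifit3b, so its values are uncertain where reads were split between the copies.

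The Oas family, named for the synthases of the 2′-5′ oligoadenylate that activates RNase L, split by member. Oas2 was at 11.38 and 11.41 in naive WT, 11.52 and 11.13 in naive KO, 12.17 and 12.20 in TFH WT and 12.10 and 12.11 in TFH KO. The 4 TFH libraries were within 0.10 of each other and all above the naive ones. Oas2 rose by 0.79 ± 0.12 in WT (adjusted p = 7.73e-04) and by 0.78 ± 0.12 in KO (adjusted p = 0.00121), and was called in both under all 13 alternatives. Oas1a was at 9.79 and 9.48 in naive WT, 9.54 and 9.70 in naive KO, 9.28 and 8.75 in TFH WT and 9.10 and 8.61 in TFH KO. It fell by 0.77 ± 0.22 on the log2 scale in KO (adjusted p = 0.0319) and differed by -0.62 ± 0.22 in WT (adjusted p = 0.0591). In WT Oas1a was called lower with B cell markers as a covariate (-0.72, limma adjusted p = 0.00912). So it was with only the WT libraries in the fit (limma adjusted p = 0.0397). The Oas1a call in KO was lost without naive KO replicate 1 (0.0773), naive KO replicate 2 (0.154) or TFH KO replicate 2 (0.207), and in WT the gene was called without TFH WT replicate 1 (-0.89, adjusted p = 0.0287). Oas1a shares 57.0% of its 51-base sequences with Oas1g, so its level is uncertain too. Of the other genes Gbp7, Herc6, Rtp4, Igtp and Ifi35 share 10.3% to 12.6% of their 51-base sequences with another annotated gene. Oas3, a long member with several oligoadenylate synthase units, and the OAS-like genes Oasl1 and Oasl2 were not called, with differences of 0.20, -0.27 and 0.32 in WT and 0.21, -0.27 and 0.16 in KO.

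The Mx genes encode dynamin-like GTPases that trap viral particles, and Mx2 had the largest difference of the 39 genes in both genotypes. Mx2 was at 7.60 and 7.78 in naive WT, 7.62 and 7.26 in naive KO, 9.42 and 9.06 in TFH WT and 8.65 and 8.99 in TFH KO. The lowest TFH library was above the highest naive one by more than the spread within any group. Mx2 rose by 1.55 ± 0.21 in WT (2.92-fold, adjusted p = 3.61e-04) and by 1.39 ± 0.21 in KO (2.61-fold, adjusted p = 9.37e-04), and was called under all 13 alternatives in each. The RefSeq annotation used here lists Mx2 (chr16:97536081-97560901) and Mx1 (chr16:97447035-97462906) as transcribed pseudogenes. Mx1 was at 8.23 and 8.42 in naive WT, 8.15 and 8.35 in naive KO, 8.96 and 8.55 in TFH WT and 8.37 and 8.50 in TFH KO. It was not called, with a difference of 0.43 ± 0.19 in WT (adjusted p = 0.121) and 0.19 ± 0.19 in KO.

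**Figure D3:**
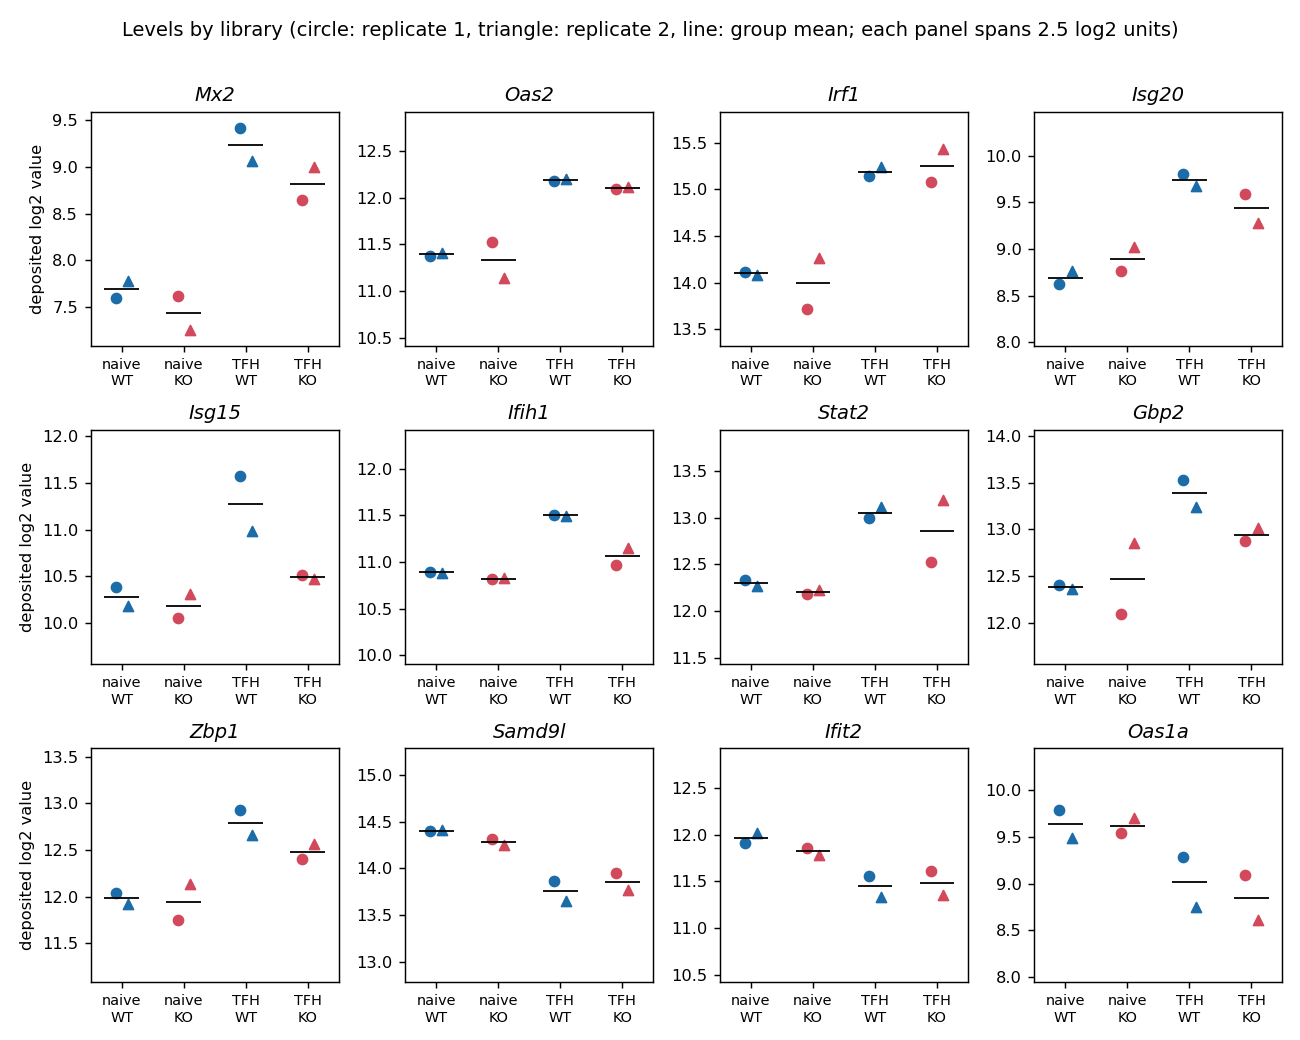
Deposited log2 values of 12 of the genes are plotted by group, a circle for replicate 1, a triangle for replicate 2 and a line for the mean of the 2; each panel spans 2.5 log2 units. Mx2, Oas2, Irf1 and Isg20 are high in both TFH groups, Isg15 and Ifih1 are highest in TFH WT, and Samd9l, Ifit2 and Oas1a are low in both TFH groups.

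The guanylate-binding proteins and immunity-related GTPases attack vacuoles that hold microbes and respond strongly to interferon gamma. All 5 had positive differences in WT and 3 rose, and none was called in KO. Gbp2 was at 12.41 and 12.36 in naive WT, 12.09 and 12.85 in naive KO, 13.53 and 13.24 in TFH WT and 12.87 and 13.01 in TFH KO. Naive KO replicate 2 came close to the TFH KO libraries, and the 2 naive KO libraries were further apart than those of any other group. Gbp2 rose by 1.0 ± 0.24 in WT (adjusted p = 0.0217) and differed by 0.47 ± 0.24 in KO (adjusted p = 0.224). Gbp7, at 12.64 and 12.60 in naive WT, 12.53 and 12.65 in naive KO, 13.12 and 13.09 in TFH WT and 12.75 and 13.12 in TFH KO, rose by 0.49 ± 0.12 in WT (adjusted p = 0.0133). Irgm1, which guards the cell's own membranes from this system, rose by 0.58 ± 0.15 in WT (adjusted p = 0.0158), where it was at 12.60 and 12.50 in naive and 13.23 and 13.02 in TFH libraries. Gbp3 and Igtp differed by 0.84 ± 0.31 and 0.36 ± 0.22 in WT and were not called.

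These calls rested on few libraries. Without any 1 of the 4 WT libraries Gbp2 and Gbp7 lost their calls, with adjusted p from 0.0609 to 0.125 and from 0.0570 to 0.0788. Irgm1 lost its call without naive WT replicate 1 (0.0559), naive WT replicate 2 (0.0999) or TFH WT replicate 1 (0.111). In KO, Gbp2, Gbp3 and Irgm1 were called without naive KO replicate 2, at 0.85, 0.81 and 0.51, and Gbp7 without TFH KO replicate 1 (0.54, adjusted p = 0.0150) or when B cell markers entered the fit as a covariate (0.0274). Naive KO replicate 2 also had the highest naive level of Ifng, 10.63, where the other 3 naive libraries had 8.98 to 9.39; the part of this in the result was not tested.

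Parp9 and its partner Dtx3l form a complex that adds ubiquitin to histones and interferon-response proteins. Parp9 was at 12.25 and 12.16 in naive WT, 12.19 and 12.21 in naive KO, 12.79 and 12.64 in TFH WT and 12.39 and 12.44 in TFH KO. It rose by 0.51 ± 0.10 in WT (adjusted p = 0.00304) and differed by 0.22 ± 0.10 in KO (adjusted p = 0.143). The partner was not called in either genotype: Dtx3l was at 12.90 and 12.75 in naive WT, 12.80 and 12.79 in naive KO, 12.89 and 12.56 in TFH WT and 12.42 and 12.47 in TFH KO. Its difference was -0.10 ± 0.12 in WT and -0.35 ± 0.12 in KO (adjusted p = 0.0602). When B cell markers entered the fit as a covariate Dtx3l was called lower in KO (-0.36, limma adjusted p = 0.0460). Parp9 and Dtx3l lie head to head in the genome and share 7.67% of the 51-base sequences of Parp9. Parp14, a mono-ADP-ribosyltransferase, differed by 0.30 and 0.12 and was not called. With the B cell covariate it was called higher in WT (0.37, limma adjusted p = 0.0178).

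Of the 10 other effectors 3 rose and 1 fell in WT, and 2 rose and 1 fell in KO. Isg20, a 3′ to 5′ exonuclease of RNA, was at 8.62 and 8.76 in naive WT, 8.76 and 9.02 in naive KO, 9.81 and 9.67 in TFH WT and 9.59 and 9.28 in TFH KO. It rose by 1.05 ± 0.17 in WT (2.06-fold, adjusted p = 9.86e-04) and by 0.54 ± 0.17 in KO (adjusted p = 0.0417), with no overlap between naive and TFH libraries. The KO call was lost without naive KO replicate 1 (0.214), naive KO replicate 2 (0.0553) or TFH KO replicate 1 (0.220). Xaf1, a binding partner of the apoptosis inhibitor XIAP, was at 10.37 and 10.41 in naive WT, 10.30 and 10.40 in naive KO, 10.93 and 10.78 in TFH WT and 10.66 and 10.75 in TFH KO. It rose by 0.47 ± 0.11 in WT (adjusted p = 0.00991) and by 0.35 ± 0.11 in KO (adjusted p = 0.0478). The KO call of Xaf1 was lost without any 1 of the 4 KO libraries (adjusted p from 0.0857 to 0.222), and the WT call without naive WT replicate 1 (0.0530) or TFH WT replicate 1 (0.0963). Rtp4, a chaperone-like protein for G protein-coupled receptors, rose by 0.44 ± 0.11 in WT (adjusted p = 0.0158), where it was at 10.96 and 10.78 in naive and 11.42 and 11.19 in TFH libraries. It lost that call without naive WT replicate 2 (0.114) or TFH WT replicate 1 (0.156).

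Samd9l, which restrains cell growth and viral translation, went down. It was at 14.40 and 14.42 in naive WT, 14.31 and 14.25 in naive KO, 13.87 and 13.66 in TFH WT and 13.95 and 13.76 in TFH KO. The fall was 0.64 ± 0.11 on the log2 scale in WT (a difference of -0.64, adjusted p = 0.00157) and 0.42 ± 0.11 in KO (a difference of -0.42, adjusted p = 0.0202). The KO call was lost without naive KO replicate 1 (0.0858), naive KO replicate 2 (0.0540) or TFH KO replicate 2 (0.159). Rsad2, which encodes viperin, was at 9.04 and 8.64 in naive WT, 8.82 and 8.76 in naive KO, 9.82 and 9.05 in TFH WT and 8.98 and 8.65 in TFH KO. TFH WT replicate 1 stood alone above the rest. Rsad2 was not called (0.59 ± 0.25 in WT, adjusted p = 0.108, and 0.03 ± 0.25 in KO), and neither was its neighbour Cmpk2, a nucleotide kinase (0.35 ± 0.18 and 0.16 ± 0.18); without TFH WT replicate 2 both were called in WT, at 0.98 and 0.65. Bst2, which encodes tetherin and holds budding virus at the surface, was at 11.99 and 11.73 in naive WT, 11.37 and 11.71 in naive KO, 11.99 and 11.70 in TFH WT and 11.82 and 11.89 in TFH KO, and was not called. Trim30a, Ifi35 and Ifi44 differed by -0.19, 0.17 and 0.54 in WT and were not called. Without naive WT replicate 2 Ifi44 was called, at 0.85.

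Set against the promoter stretches above, the same core accompanied different outcomes. Of the 16 genes with an ISRE match 6 rose and none fell in WT, and of the 14 with a window and no match 3 rose and 2 fell. In KO 1 rose and 1 fell with a match, and 3 rose and 1 fell without. The split depended on the form of the core, as Samd9l, which fell in both genotypes, matches only the looser one. With the looser form 6 of 18 genes with a match rose and 1 fell in WT, and 1 rose and 2 fell in KO. Of the 12 without it 3 rose and 1 fell in WT, and 3 rose and none fell in KO. Over all genes 12.6% were called higher and 13.7% lower in WT, and 9.12% and 10.4% in KO. Mx2, Oas2, Zbp1, Parp9 and Rtp4, which rose in WT, had no window and are in none of these counts. Of these Mx2, Oas2 and Zbp1 also rose in KO, so the counts leave out genes that rose in both genotypes. Ifit1 and Ifit3, with 2 matches each, were not called, and Oas1a, also with 2, fell in KO. Of the 8 genes with a GAS match 3 rose and 1 fell in WT and 2 rose and 1 fell in KO; of the 22 without one 6 rose and 1 fell in WT and 2 rose and 1 fell in KO.

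The genes that make and carry the interferon signal were read beside the list. Of 43 pathway genes listed 35 were measured; 2 rose and 8 fell in WT, and 3 rose and 7 fell in KO. That is 28.6% called in each genotype, against 26.3% of all genes in WT and 19.5% in KO. Of the 8 interferon genes listed only 2 were measured, and Ifng is among them. Ifng, the only type II interferon gene, was at 9.39 and 9.09 in naive WT, 8.98 and 10.63 in naive KO, 11.41 and 11.43 in TFH WT and 11.47 and 11.25 in TFH KO. All 4 TFH libraries were above the naive ones, but Ifng was not called (2.18 ± 0.57 in WT, adjusted p = 0.0543, and 1.56 ± 0.57 in KO, adjusted p = 0.143).

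Among receptors, Ifnar1 and Ifnar2 were not called (-0.18 and -0.26 in WT, 0.04 and -0.24 in KO). Ifngr1, the ligand-binding chain for interferon gamma, fell in WT by 0.66 ± 0.15 on the log2 scale (adjusted p = 0.00801) and differed by -0.46 ± 0.15 in KO (adjusted p = 0.0517). Il10rb, a chain shared by interferon lambda and interleukin 10 receptors, fell in both genotypes, by 1.22 ± 0.12 in WT and 0.92 ± 0.12 in KO on the log2 scale. Jak2 rose in both, by 0.68 ± 0.11 and 0.40 ± 0.11, while Jak1 fell by 0.50 ± 0.11 and 0.36 ± 0.11. Socs1, the feedback inhibitor, was at 6.03 and 6.67 in naive WT, 6.25 and 6.72 in naive KO, 6.83 and 6.41 in TFH WT and 6.73 and 6.87 in TFH KO, and was not called. Pias1, an inhibitor of cytokine signalling, fell in WT by 0.50 ± 0.11. Of the sensors that lead to interferon, Tlr7 fell by 1.63 ± 0.32 in WT and 1.49 ± 0.32 in KO, and Mb21d1 (cGAS, a DNA sensor) by 0.81 ± 0.18 and 0.96 ± 0.18. Irf3, which turns on interferon beta, fell by 0.49 ± 0.12 in WT and 0.44 ± 0.12 in KO, and Cish, a feedback inhibitor related to Socs1, rose by 0.41 ± 0.11 and 0.38 ± 0.11. Tlr7 is also abundant in B and myeloid cells, whose marker levels are given above; their part in its fall was not tested.

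TFH KO was compared with TFH WT to ask how the same genes stood in transferred cells without C5aR1. None of the 39 genes was called, nor any of the 14042 genes (0%). Most differences were below 0: 33 of 39 (84.6%), against 49.7% of all genes, with a median of -0.22 against 0.00 for all genes. At an unadjusted p below 0.05 there were 8 of the 39 genes (20.5%), against 3.6% of all genes, and all 8 were lower in KO. In 19 of the 39 genes (48.7%) both KO libraries lay below both WT libraries, against 16.5% of all genes. In Ddx58 both lay above, as in 16.5% of all genes.

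By the size of p the leading genes were Ifih1, Isg15, Parp9, Oasl2, Rsad2 and Dtx3l, each with a limma adjusted p of 1. Isg15, at 11.57 and 10.98 in TFH WT and 10.51 and 10.47 in TFH KO, differed by -0.79 ± 0.18 (95% interval -1.19 to -0.38, unadjusted p = 0.00146). Ifih1, at 11.51 and 11.50 against 10.97 and 11.15, differed by -0.44 ± 0.10 (-0.67 to -0.22, unadjusted p = 0.00117). In both the KO libraries sat between the naive level and TFH WT. Oasl2 was at 10.21 and 9.95 in TFH WT and 9.56 and 9.63 in TFH KO, a difference of -0.49 ± 0.19. Parp9, Rsad2 and Dtx3l, whose levels are above, differed by -0.30 ± 0.10, -0.62 ± 0.25 and -0.28 ± 0.12. The others of these 8 genes were Rtp4 at -0.27 ± 0.11 and Ifit3 at -0.45 ± 0.19.

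For the 7 genes that rose in TFH cells of both genotypes the gap between genotypes was small or uncertain. Irf1 differed by 0.06 ± 0.18 (95% interval -0.34 to 0.47), Oas2 by -0.08 ± 0.12 (-0.35 to 0.18), Stat2 by -0.20 ± 0.19 and Mx2 by -0.42 ± 0.21 (-0.88 to 0.04). Zbp1, Isg20 and Xaf1 differed by -0.31 ± 0.14, -0.30 ± 0.17 and -0.15 ± 0.11. In these, as in Oas2 and Mx2, both KO libraries lay below both WT libraries. Mx1, Gbp2, Ifit1 and Usp18 differed by -0.32 ± 0.19, -0.44 ± 0.24, -0.40 ± 0.19 and -0.24 ± 0.15. Irf7, Irf9 and Bst2 differed by -0.16 ± 0.12, -0.08 ± 0.10 and 0.01 ± 0.14. Ifng differed by -0.06 ± 0.57, and Ifnar1, Ifnar2, Ifngr1 and Socs1 by 0.09, 0.02, 0.09 and 0.18, none of them called.

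One library stood at the top of the list in TFH cells. TFH WT replicate 1 was the highest of the 4 TFH libraries in 31 of the 39 genes (79.5%), against 30.7% of all genes, and TFH KO replicate 1 was the lowest in 21 (53.8%), against 20.2% of all genes. In the list replicate 1 of TFH WT exceeded replicate 2 by a median of 0.23, where it was 0.03 over all genes. Without TFH WT replicate 1 the median difference between KO and WT was -0.12, with 28 of 39 genes below 0, and without TFH WT replicate 2 it was -0.32, with 37 below 0. TFH WT replicate 1 was also the lowest of the 8 libraries in the B cell and myeloid marker medians (-1.89 and -2.01 from the mean over libraries), next to TFH KO replicate 1 (-1.75 and -1.41), and TFH KO replicate 2 was the highest in B cell markers (2.15). With replicate 2 of both TFH groups left out, the 2 libraries low in B cell markers were compared, and the median was -0.36 with 36 genes below 0. These are also the libraries most often highest (TFH WT) and most often lowest (TFH KO) in the list. That value therefore cannot separate the B cell level from the order of the libraries. In a fit that held the B cell marker level as a covariate the median was -0.22. Of 16 B cell markers 15 were higher in TFH KO than in TFH WT (median 0.76). Other marker lists also differed between the TFH groups, and no gene in any of these lists was called. All 9 TFH markers were lower in KO (median -0.41), with a summed level of 0.0450% to 0.0543% in TFH KO and 0.0617% to 0.0696% in TFH WT. All 9 NK and CD8 markers were higher (median 0.66), at 0.00703% to 0.0114% and 0.00517% to 0.00801%. Of 15 myeloid markers 14 were higher (median 0.30), and of 6 naive T cell markers 5 (median 0.17), the latter summing to 0.349% to 0.383% in TFH KO and 0.327% to 0.336% in TFH WT. Of 9 plasmacytoid dendritic cell markers 8 were higher in TFH KO (median 0.31). The part of these other lists in the differences of the 39 genes was not tested.

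**Figure D4:**
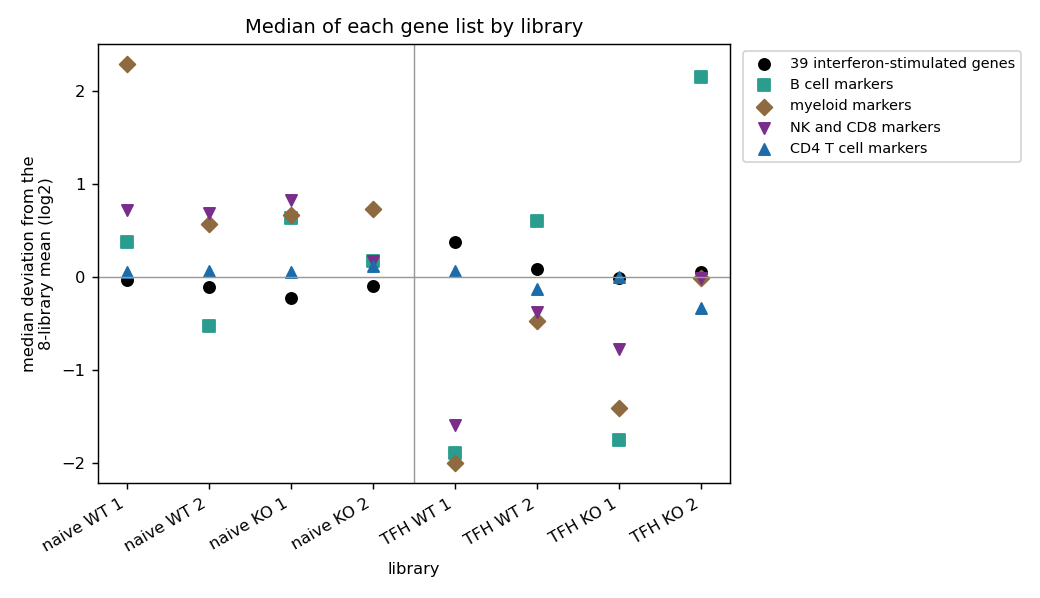
For each library the median deviation from the mean over the 8 libraries (log2) is shown for the 39 genes and for 4 lists of cell type markers. The 39 genes run from -0.23 in naive KO 1 to 0.37 in TFH WT 1, while B cell markers run from -1.89 in TFH WT 1 to 2.15 in TFH KO 2 and do not follow the groups.

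Naive KO was compared with naive WT to show the list without transfer. None of the 39 genes was called, against 0.0712% of all genes (10 genes). Differences were small, with a median of -0.07 against 0.01 for all genes. Below 0 were 32 of 39 (82.1%), against 45.6% of all genes. At an unadjusted p below 0.05 there was 1 of the 39 genes (2.56%), against 2.53% of all genes: Herc6, at 11.63 and 11.46 in naive KO and 11.93 and 11.79 in naive WT, a difference of -0.32 ± 0.11 (95% interval -0.55 to -0.08, limma adjusted p = 1.0). Both KO libraries lay below both WT libraries in 12 of 39 genes (30.8%), against 11.2% of all genes, and above them in Isg20, as in 15.2% of all genes. Bst2, Oas3, Trim30a, Oasl2 and Ifit3 followed Herc6 in the order of p, at -0.31 ± 0.14, -0.22 ± 0.11, -0.20 ± 0.10, -0.32 ± 0.19 and -0.25 ± 0.19. Oas3 was at 11.21 and 11.10 in naive KO and 11.46 and 11.30 in naive WT, and Trim30a at 12.74 and 12.76 against 12.95 and 12.94. Trim30a, Isg20 and Irf7 lie on chromosome 7, which also carries C5ar1.

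The rest of the fixed set was close between the naive groups. Isg15, Ifih1, Irf1, Stat2 and Mx1 differed by -0.10, -0.07, -0.11, -0.10 and -0.08, and Ifit1, Irf7, Irf9, Usp18, Rsad2 and Gbp2 by -0.14, -0.12, -0.04, -0.05, -0.05 and 0.08. Naive KO replicate 1, the library that differed in Xist and Ddx3y, was the lowest of the 4 naive libraries in 21 of the 39 genes (53.8%), against 20.7% of all genes. Without it the median difference was -0.03 and 23 of 39 genes were below 0.

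**Figure D5:**
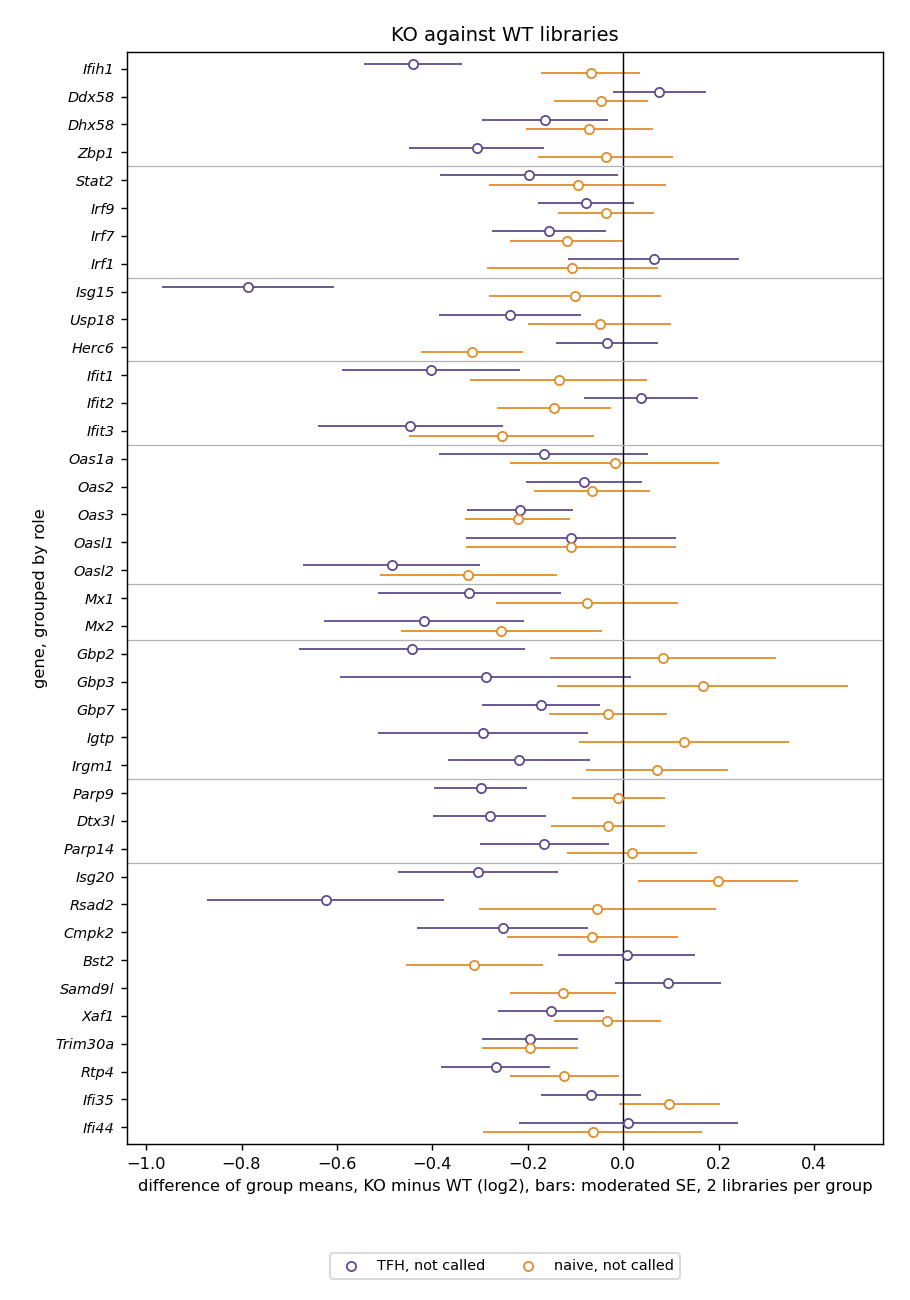
The difference of group means (KO minus WT, log2) is shown for each gene in TFH and in naive cells, with bars of 1 moderated standard error from 2 libraries a group; open points mark that none was called. In TFH cells 33 points lie below 0, with Isg15 farthest at -0.79, and in naive cells 32 lie below 0, with Oasl2 farthest at -0.32.

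Whether the TFH minus naive difference itself depended on the genotype was tested as an interaction. None of the 39 genes was called, and 0.0142% of all genes were (2 genes). At an unadjusted p below 0.05 there were 2 of the 39 genes (5.13%), against 4.37% of all genes: Isg15 at -0.69 ± 0.26 (95% interval -1.26 to -0.12) and Ifih1 at -0.37 ± 0.15 (-0.69 to -0.05), both with a limma adjusted p of 0.997. Isg20 (-0.50 ± 0.24), Parp9 (-0.29 ± 0.14), Herc6 (0.28 ± 0.15) and Rsad2 (-0.57 ± 0.35) came next. So the 7 genes called higher in WT and not in KO, which are Ifih1, Isg15, Gbp2, Gbp7, Irgm1, Parp9 and Rtp4, were not shown to differ in their response between genotypes. For the genes called in both, the interaction was 0.17 ± 0.25 in Irf1, -0.02 ± 0.17 in Oas2 and -0.16 ± 0.30 in Mx2. Mx1, Ifit1, Ifit3, Stat2, Usp18, Bst2 and Gbp2 gave -0.25, -0.27, -0.19, -0.10, -0.19, 0.32 and -0.53. The median of the 39 genes was -0.16, and it was -0.03 without TFH WT replicate 1. Centring on housekeeping genes moved the median of all genes to 0.12 and that of the list to -0.03, and turned the sign of 7 of the 39 genes, among them Stat2, Irf9, Irf7 and Oas2.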

How the data were processed

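Total RNA from 8 sorted mouse CD4 libraries was sequenced as single-end reads of 51 bases on a HiSeq 4000, per the labels' protocols. The submitters' processing notes name BWA and mm10; versions, the counting step and the normalization were not found in the labels. The deposited tables hold log2 expression values, 1 per gene, from 1.16 to 19.48. The sorted values of the libraries nearly coincide, so the authors' values were already scaled to a common distribution. No counts were given, so depth is unknown and strand and length corrections are too; levels were not compared between genes.

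limma 3.58.1 (R 4.3.3) was fitted to the log2 values of all 14042 genes with 4 group means, 4 residual degrees of freedom, and the trend and robust options; p-values were adjusted over all genes by Benjamini-Hochberg within each of 5 comparisons, at 0.05. The script was tested on simulated data. Errors are moderated SEs and intervals are 95%. A positive difference means TFH over naive, or KO over WT. The interaction is the TFH minus naive difference in KO less that in WT. Motifs were searched on both strands of RefSeq promoter windows, and shared 51-base sequences in GENCODE vM21 transcripts.

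The members, lists and tests were chosen with earlier results of these data known. Values per library are given for up to 12 called members per comparison by smallest p and for 13 fixed genes (Isg15, Mx1, Ifit1, Ifit3, Irf7, Irf9, Stat2, Irf1, Usp18, Rsad2, Ifih1, Bst2 and Gbp2); where none was called the 6 with the smallest p are named. Of the pathway list up to 6 called genes per comparison are named, with Ifnar1, Ifnar2, Ifngr1, Socs1 and Ifng always; 1 further gene of that list is not reported here. Alternatives were the limma options, a low-value filter, 2 scalings, library weights, a B cell covariate, the compared groups alone, and leaving out libraries.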

Additional observations from a re-analysis of the deposited data

How the results depend on the processing

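No paired analysis was possible because libraries were numbered within a group by accession order alone, and no number links libraries of different groups. The count of the 39 genes called was 0 under every alternative in both KO against WT comparisons and in the interaction. In WT, TFH against naive, it stayed within 1.5 times of 16 (11 to 14 with 1 library left out) and 8 genes were called under all 13 alternatives: Ifih1, Zbp1, Irf1, Isg15, Oas2, Mx2, Isg20 and Samd9l. In KO, 9 became 3 without the trend option, 4 with housekeeping centring, 3 without replicate 2 of both TFH groups, and 3 to 10 with 1 library left out, lowest without naive KO replicate 1 and 4 without TFH KO replicate 2; Irf1, Oas2 and Mx2 were called under all. No called gene changed sign. The median of the list without replicate 2 of both TFH groups was -0.36 for TFH KO against WT and 0.50 for WT, and with 1 library left out it was 0.21 to 0.50 in WT, 0.08 to 0.24 in KO and -0.259 to -0.0270 in the interaction, where housekeeping centring gave -0.0283. Over all genes, TFH KO against WT gave 1 call with the compared groups alone, and naive KO against WT gave 7 to 17 with 1 library left out. In WT 3694 calls became 2396 (housekeeping), 2104 (without replicate 2 of both TFH groups) and 1991 to 2501 (1 library left out). In KO 2744 became 1380, 1225 and 1399 to 2219. The interaction gave 0 without the trend option, 1 with housekeeping centring and 1 to 7 with 1 library left out. Replacing the ISRE core by its looser form changed the genes with a match from 16 to 18. The cause of these changes was not tested. Where an arm kept 1 library, that library was assumed to vary like the other groups. Unknown depth limits all levels.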

Other observations

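A wider list of 57 further interferon-stimulated genes, of which 56 were measured, was described by its counts in TFH against naive cells. In WT 7 rose, 16 fell and 33 were not called between TFH and naive cells, with a median of -0.05, and in KO 6 rose, 15 fell and 35 were not called, with a median of -0.17. Called lower were 28.6% in WT and 26.8% in KO, against 13.7% and 10.4% of all genes, and called higher 12.5% and 10.7%, against 12.6% and 9.12%. Of these 5 rose and 13 fell in both genotypes. The following genes were chosen after their values were seen. Ifi204, a DNA-binding protein of the p200 family, was at 7.12 to 8.52 in the 4 naive libraries and 10.82 to 11.08 in the 4 TFH libraries, and rose by 3.10 ± 0.45 in WT (limma adjusted p = 0.00557) and 3.39 ± 0.45 in KO (adjusted p = 0.00536). Gbp4, Gbp6 and Gbp9, further guanylate-binding proteins, rose in both genotypes, by 0.79, 0.83 and 0.42 in WT and 0.72, 0.55 and 0.48 in KO. Ube2l6, the conjugating enzyme for ISG15, rose by 0.64 and 0.63.

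The genes of this list that fell included Schlafen genes, a family with members that restrain T cell growth, and Ly6 surface genes. Slfn1, Slfn2, Slfn5 and Slfn8 differed by -0.80, -0.87, -0.70 and -0.63 in WT and by -0.88, -1.25, -0.64 and -0.45 in KO, all called. Ly6c1, a surface antigen of T cell subsets, differed by -1.82 and -1.60. Ifit1bl1, a relative of Ifit1, was at 12.26 to 12.77 in the naive libraries and 9.51 to 10.23 in the TFH libraries, and differed by -2.67 and -2.66. Irgm2, a relative of Irgm1 which rose in WT, differed by -0.83 and -1.21, called lower in both. Between TFH KO and TFH WT none of the 56 was called by limma and 47 of 56 (83.9%) were below 0, close to the share in the 39 genes (84.6%); the comparison shares its libraries with theirs.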
